A study of Mus musculus with 8 samples.

Results

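The Serpina3 cluster of the mouse is a run of closely related serine protease inhibitor genes on chromosome 12, and 7 of its genes, Serpina3c, Serpina3f, Serpina3g, Serpina3i, Serpina3k, Serpina3m and Serpina3n, were followed here through the liver's response to sorbate. They were taken by symbol from a count table of 55487 genes. The tested group was 4 liver libraries of male C57Bl/6J mice at about 10 weeks of age, 4 hours after 17 mg of potassium sorbate, a food preservative, by oral gavage. The other group was 4 liver libraries of mice given water instead, called controls, with the same sex, strain, age and time after gavage. The series title ties sorbate to lysine sorbylation by class I histone deacetylases and to inflammation genes, so the comparison asks what a single dose does to liver RNA. Poly(A) RNA was sequenced, and p-values measure the spread between libraries, since the labels do not say that each came from a separate animal.

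Serpins are suicide inhibitors. The target protease cuts an exposed loop near the carboxyl end of the serpin, the loop snaps into the body of the protein, and the protease is left bound and distorted. The human counterpart of this cluster, SERPINA3, encodes alpha-1-antichymotrypsin, a plasma protein that hepatocytes secrete in larger amounts during the acute-phase response, the liver's change of plasma protein output under inflammatory cytokines. In the mouse this gene has multiplied into a family whose members differ mainly in that loop, and so in the proteases they bind.

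Library totals ran from 15773932 to 25844731 counts. On the first principal component, which held 53.6% of the variance, control 2 scored -15.4, between the sorbate libraries at -37.8 to -21.9 and the other controls at 42.1 to 49.1. Control 2 therefore stood apart from the other controls on this component, and each member is given with and without it where that matters. The component was computed from the same libraries, so it is no independent ground for leaving control 2 out. Where control 2 lay near the sorbate libraries, leaving it out enlarges the change and narrows the control spread by construction. Calls gained only without control 2 are therefore description only. Hepatocyte markers were abundant in every library, with a summed level of 92331 to 115973 CPM (scaled counts, per 1e6 of the library) with sorbate and of 78104 to 96523 CPM in controls, and of the 10, 1 rose (Cyp2e1), 0 fell and 0 were at 0.

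In the GENCODE annotation of GRCm38 the 14 genes listed for the cluster span chromosome 12 from 104112724 to 104414329, a stretch of 301606 bases. Serpina3n (ENSMUSG00000021091, 104406729 to 104414329, plus strand) lies at one end. Serpina3k (ENSMUSG00000058207) starts at 104338486 and ends at 104346144, and Serpina3m (ENSMUSG00000079012) is annotated from the same first base to 104394257, because a transcript assigned to it begins in Serpina3k. The 2 genes share 60 exon bases, 2.92% of the exon length of Serpina3k. Serpina3f (104214544 to 104221129), Serpina3g (104236245 to 104241939) and Serpina3i (104263122 to 104269372) stand next to each other on the plus strand, broken only by the pseudogene Serpina3h. Serpina3c (104146382 to 104153870) is the only member on the minus strand.

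**Figure D1:**
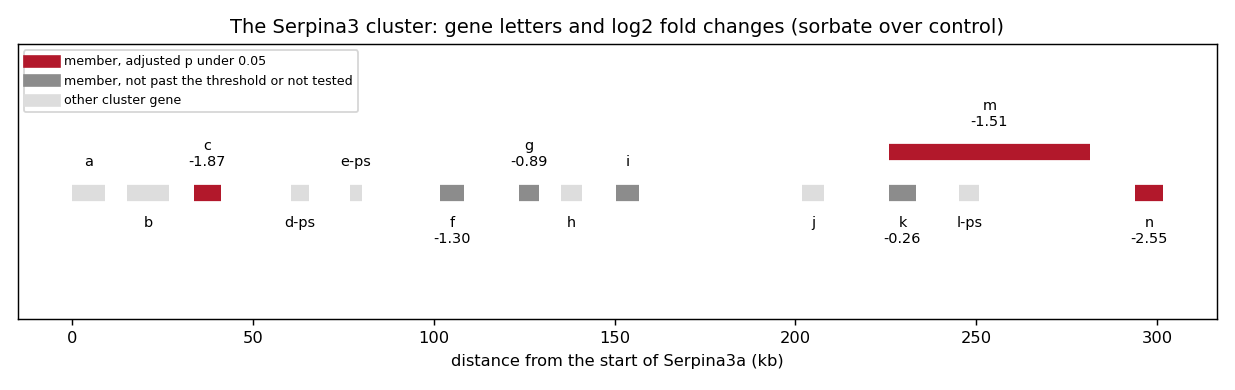
Map of the 14 genes of the Serpina3 cluster along chromosome 12, as distance in kb from the start of Serpina3a, with each gene's letter and, under the letter of each tested member, its log2 fold change (sorbate over control). Red bars mark Serpina3c, Serpina3m and Serpina3n, which passed the threshold at -1.87, -1.51 and -2.55; dark grey bars mark the other members and light grey bars the other genes, and Serpina3m is drawn above Serpina3k because their annotated spans overlap.

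The members are alike enough to share reads. Coding sequences of Serpina3k and Serpina3m were 92.6% identical over 1243 aligned bases, and those of Serpina3f and Serpina3i 92% over 1220 bases. Identity was lowest between Serpina3f and Serpina3k, at 81.1%. Of all 50-base windows of a gene's annotated transcripts, 19.1% of those of Serpina3m also occurred in another gene's transcripts, 16% in those of Serpina3k. The shared portion was 15.9% for Serpina3i, 15.5% for Serpina3g, 14% for Serpina3k, 10.6% for Serpina3f, 6.9% for Serpina3n and 4.25% for Serpina3c. With windows of 100 bases it was 6.09% for Serpina3m, 4.85% for Serpina3k, 3.49% for Serpina3g, 3.4% for Serpina3f and 2.25% for Serpina3i. At that length it was 0.204% for Serpina3n and 0% for Serpina3c, so sharing depends on the length of a read. Serpina3n and Serpina3c are thus the members with the most sequence of their own. How the authors' counting treated reads that match several genes is not given in the sources used here, so single values of Serpina3f, Serpina3g, Serpina3i, Serpina3k and Serpina3m carry that uncertainty.

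Because Serpina3c, Serpina3m and Serpina3n fell and the other members share their sequence, the promoters are shown for the 5 members that RefSeq's table covers (GRCm38.p6, 250 bases before to 50 after the annotated start). Serpina3k and Serpina3m are named only, and of the 2 windows of Serpina3f 1 is shown. Capitals mark matches, on either strand, to TTCNNNGAA (the STAT letters), TTGCNNAA (C/EBP) and GGG, any 2 bases and TTTCC (NF-kB), the motifs of factors known to act on acute-phase genes. No match overlapped another.
Serpina3n, chr12:104406458-104406757, plus strand: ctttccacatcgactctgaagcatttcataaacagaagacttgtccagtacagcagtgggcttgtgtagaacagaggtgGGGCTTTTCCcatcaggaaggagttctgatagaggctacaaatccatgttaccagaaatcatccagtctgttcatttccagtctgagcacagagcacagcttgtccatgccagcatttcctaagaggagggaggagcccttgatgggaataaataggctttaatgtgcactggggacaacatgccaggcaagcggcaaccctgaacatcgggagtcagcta
Serpina3c, chr12:104153823-104154122, minus strand: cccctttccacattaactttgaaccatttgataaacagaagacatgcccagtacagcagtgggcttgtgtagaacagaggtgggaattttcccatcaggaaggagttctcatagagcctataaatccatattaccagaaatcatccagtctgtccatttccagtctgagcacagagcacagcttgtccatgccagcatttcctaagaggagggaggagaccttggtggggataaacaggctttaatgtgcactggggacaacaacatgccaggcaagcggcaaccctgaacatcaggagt
Serpina3f, chr12:104214294-104214593, plus strand: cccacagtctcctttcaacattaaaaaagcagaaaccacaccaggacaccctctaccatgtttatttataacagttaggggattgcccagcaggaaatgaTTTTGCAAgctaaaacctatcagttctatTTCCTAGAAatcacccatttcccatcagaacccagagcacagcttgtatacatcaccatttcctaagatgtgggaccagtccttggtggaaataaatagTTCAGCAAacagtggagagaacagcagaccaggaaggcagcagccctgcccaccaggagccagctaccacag
Serpina3g, chr12:104235897-104236196, plus strand: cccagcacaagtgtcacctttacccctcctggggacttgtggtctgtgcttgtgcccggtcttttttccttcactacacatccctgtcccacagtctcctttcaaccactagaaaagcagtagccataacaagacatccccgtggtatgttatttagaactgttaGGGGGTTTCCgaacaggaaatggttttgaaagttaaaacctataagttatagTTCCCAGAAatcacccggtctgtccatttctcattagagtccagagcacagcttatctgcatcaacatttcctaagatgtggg
Serpina3i, chr12:104262872-104263171, plus strand: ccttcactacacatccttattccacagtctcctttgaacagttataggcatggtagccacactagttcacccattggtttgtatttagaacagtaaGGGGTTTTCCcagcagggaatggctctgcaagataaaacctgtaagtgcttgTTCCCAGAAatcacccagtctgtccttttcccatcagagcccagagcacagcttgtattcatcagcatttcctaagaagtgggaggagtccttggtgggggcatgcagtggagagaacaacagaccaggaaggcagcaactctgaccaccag

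The NF-kB letters occurred in Serpina3n, Serpina3g and Serpina3i, against 1.61% of the 32544 distinct promoter windows searched. The STAT letters occurred in Serpina3f, Serpina3g and Serpina3i, against 8.33% of all windows, and the C/EBP letters in Serpina3f at 2 places, against 10.8%. The Serpina3n and Serpina3c windows were 93.5% identical over 294 aligned bases, the closest pair shown. They differed within the NF-kB match of Serpina3n at G82A and C83A, counted from 1 at the 5′ end of the Serpina3n window with the base of Serpina3n first, and those letters are not matched in Serpina3c. At the STAT match of Serpina3i both had 1 other base, C151A, counted in the Serpina3i window. The windows come from related genes. The NF-kB matches of Serpina3n, Serpina3g and Serpina3i align to each other without gaps, as do the STAT matches of Serpina3f, Serpina3g and Serpina3i. They are therefore not independent, and their number cannot be weighed against the share of all windows. These matches are letters in a window and show no binding.

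Sorbate-treated livers had less Serpina3n, Serpina3m and Serpina3c RNA than controls. The log2 fold changes were -2.55, -1.51 and -1.87, and the mean level with sorbate was 17% of the control mean for Serpina3n, 35.2% for Serpina3m and 27.5% for Serpina3c. Serpina3f, Serpina3g and Serpina3k, at -1.30, -0.89 and -0.26 on that scale, did not pass the test, and Serpina3i had too few counts to be tested. Of the 7 members, 6 could be tested with edgeR's quasi-likelihood method, and 3 fell and 0 rose (p adjusted by Benjamini-Hochberg over 13312 genes, threshold 0.05). Across all tested genes 6.30% fell and 6.14% rose. Without control 2, 5 of these 6 members fell, all but Serpina3k, a count given as description only. In that fit 14.1% of all tested genes fell and 15.1% rose. Scaled by library size alone, the same 3 genes fell, while the median over all tested genes was 0.11 on the log2 scale, against -0.02, and 70.3% of all calls were higher, against 49.4%. The Serpina3m call was lost with limma-voom (adjusted p = 0.0509) and in each of the 7 leave-outs that kept control 2. In bulk liver, fewer cells of a type and less RNA per cell cannot be told apart.

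**Figure D2:**
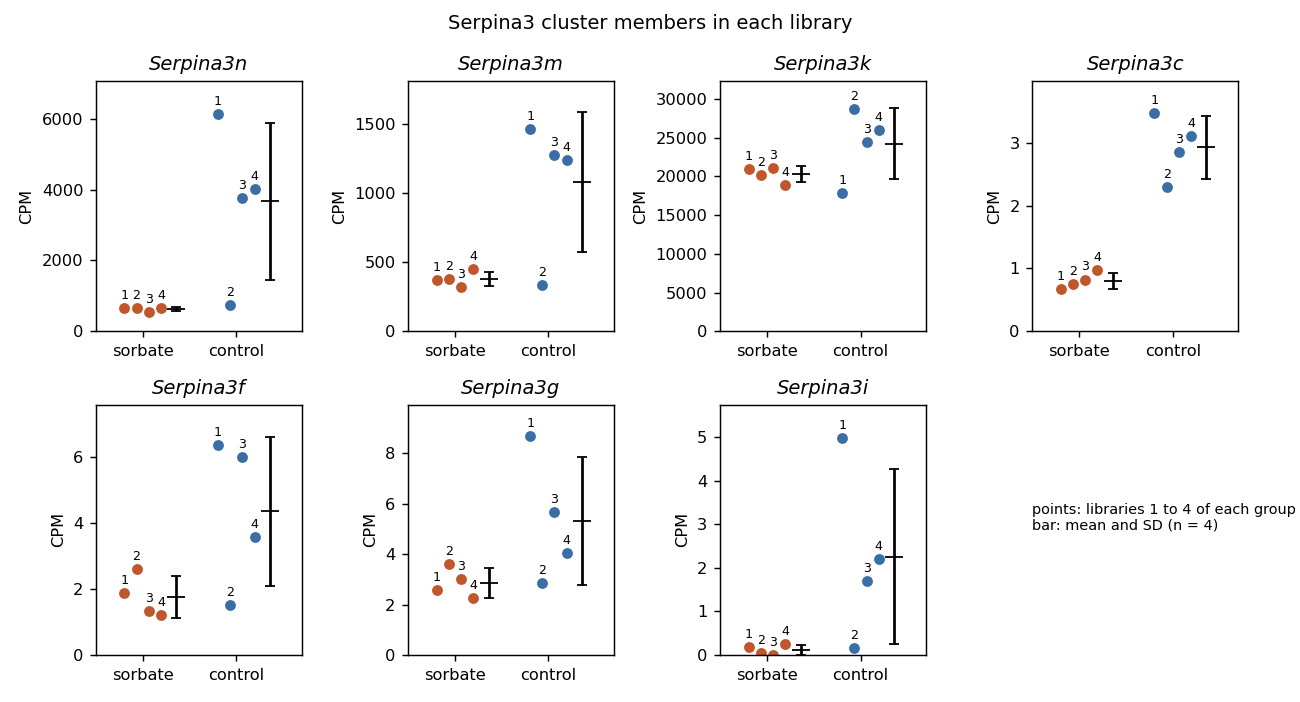
CPM of the 7 members in each library, sorbate on the left of each panel and control on the right, with the library number above each point and the mean and SD (n = 4) as a bar. Control 2 sits just above the sorbate libraries for Serpina3n, among them for Serpina3m, Serpina3f, Serpina3g and Serpina3i, near the other controls for Serpina3c, and highest of all for Serpina3k.

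Serpina3n encodes the secreted acute-phase member, an inhibitor of granzyme B and of neutrophil serine proteases. It measured 644, 668, 537 and 652 CPM in the sorbate libraries, against 6148, 753, 3756 and 4028 CPM in controls 1 to 4. The sorbate livers were close to each other and all lay below every control, but control 2 was only just above them. Among all tested genes, 8.32% had every sorbate library below every control. The means were 625 ± 59.4 CPM with sorbate and 3671 ± 2220 CPM in controls (SD, n = 4 each; log2 fold change -2.55, SE 0.48, adjusted p = 0.00885). Controls 1, 3 and 4 averaged 4644 ± 1310 CPM, 6.17 times control 2. The change passed the test with each library left out in turn, between -2.88 without control 2 and -2.19 without control 1. By level, Serpina3n ranked between 170 and 223 among all genes with sorbate and between 23 and 161 in controls.

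Serpina3m, a liver-expressed member close to Serpina3k, followed Serpina3n. Its levels were 371, 377, 323 and 448 CPM with sorbate, against 1466, 334, 1274 and 1238 CPM in controls 1 to 4. Here the groups overlapped, since control 2 was below 3 of the 4 sorbate libraries, while the other controls were all at least 1238 CPM. The means were 380 ± 51.8 CPM with sorbate and 1078 ± 506 CPM in controls (SD, n = 4 each; log2 fold change -1.51, SE 0.36, adjusted p = 0.0243). Each of the 7 fits that kept control 2 and dropped another library missed the threshold (-1.59 to -1.32, adjusted p of 0.0575 to 0.0721). Without control 2 the log2 fold change was -1.79 (SE 0.14, adjusted p = 5.73e-06). That fit is description only, since it drops the control that lay among the sorbate libraries.

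Serpina3k encodes contrapsin, an abundant trypsin-inhibiting plasma serpin. It was among the 6 most abundant genes of every library. Its levels were 20947, 20216, 21066 and 18858 CPM with sorbate, against 17854, 28659, 24503 and 25940 CPM in controls 1 to 4. The sorbate libraries lay within the control range. The means were 20272 ± 1015 CPM with sorbate and 24239 ± 4592 CPM in controls (SD, n = 4 each; log2 fold change -0.26, SE 0.20, adjusted p = 0.409), and the 95% interval of the log2 fold change ran from -0.69 to 0.17. Among controls its order was the reverse of that of Serpina3n at both ends: control 1 had the lowest Serpina3k and the highest Serpina3n, and control 2 the highest Serpina3k and the lowest Serpina3n.

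Serpina3c, known as kallikrein-binding protein, was a low-level transcript in these livers, with 16 to 18 counts per sorbate library and 41 to 70 per control library. Its levels were 0.673, 0.756, 0.823 and 0.974 CPM with sorbate, against 3.48, 2.29, 2.85 and 3.10 CPM in controls 1 to 4. The groups did not overlap, and control 2 lay nearer to the other controls than to any sorbate library. The means were 0.806 ± 0.127 CPM with sorbate and 2.93 ± 0.501 CPM in controls (SD, n = 4 each; log2 fold change -1.87, SE 0.25, adjusted p = 0.00199). It passed the test with each library left out, between -1.96 and -1.78. Controls 1, 3 and 4 averaged only 1.37 times control 2, against 3.97 times for Serpina3m.

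**Figure D3:**
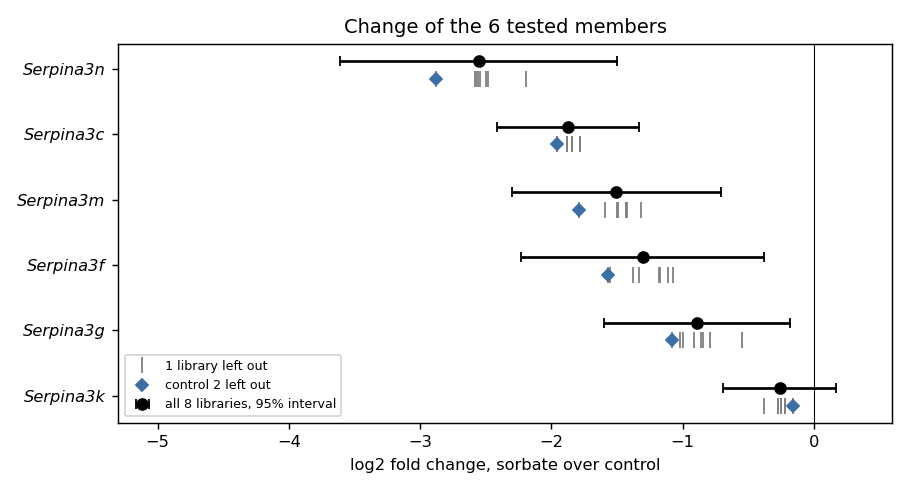
Log2 fold changes (sorbate over control) of the 6 tested members, with all 8 libraries (black points with 95% intervals) and with 1 library left out (grey ticks; blue diamonds for control 2). Serpina3n lies furthest from 0 at -2.55, the intervals of Serpina3f and Serpina3g end at -0.38 and -0.18, and that of Serpina3k spans 0.

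Serpina3f and Serpina3g were low-level transcripts too. Serpina3g, also called Spi2A, is an intracellular inhibitor of lysosomal cathepsins known from blood cells, where NF-kB raises it. Serpina3g measured 2.58, 3.60, 3.02 and 2.25 CPM with sorbate, against 8.71, 2.85, 5.66 and 4.03 CPM in controls 1 to 4. Serpina3f measured 1.87, 2.62, 1.33 and 1.22 CPM with sorbate, against 6.37, 1.51, 6.00 and 3.59 CPM in the same controls. In both genes controls 1, 3 and 4 were above every sorbate library and control 2 lay among the sorbate libraries. The log2 fold change was -0.89 for Serpina3g (SE 0.32, 95% interval -1.60 to -0.18, adjusted p = 0.0934) and -1.30 for Serpina3f (SE 0.42, 95% interval -2.23 to -0.38, adjusted p = 0.0671). Without control 2 both passed, at -1.08 (adjusted p = 0.0105) for Serpina3g and -1.57 (adjusted p = 0.00234) for Serpina3f. These calls too are description only, since that fit drops the control that lay among the sorbate libraries.

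Serpina3i, a member of no well-described function, had most of its counts in controls 1, 3 and 4. It had 5, 1, 0 and 4 counts with sorbate, against 100, 3, 35 and 45 counts in controls 1 to 4. In sorbate 3 a count of 0 allows up to 3 counts, or 0.137 CPM, for counting error only. The sums were 10 counts over the sorbate libraries and 183 over the controls, and control 2 again fell within the sorbate range. It did not pass the filter on low counts. Tested without that filter, its log2 fold change was -4.23 (SE 0.79, adjusted p = 0.0015). In the fits with 1 library left out it passed the filter, if at all, only through its control counts, so their values are not used.

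Per kilobase of exon the members covered a wide range of levels. Serpina3k stood at 9855 ± 493 CPM per kb with sorbate and 11784 ± 2232 in controls, followed by Serpina3n at 303 ± 28.8 and 1779 ± 1076 and Serpina3m at 221 ± 30.1 and 627 ± 294 (SD, n = 4 each). Then came Serpina3g at 1.36 and 2.52 CPM per kb, Serpina3f at 0.768 and 1.91, Serpina3c at 0.364 and 1.32 and Serpina3i at 0.0534 and 1.02, each with the sorbate mean first. This order of the means was the same in both groups. Serpina3n was above Serpina3m in 8 of 8 libraries, although their ranges overlapped within each group, as did those of Serpina3g and Serpina3f. In controls, Serpina3f and Serpina3c, and Serpina3c and Serpina3i, also overlapped and held their order in 3 of 4 libraries.

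Serpina3k so dominated the cluster that the make-up of its reads moved with Serpina3n and Serpina3m. Serpina3k held 95.4%, 95.1%, 96.1% and 94.5% of the counts of the 7 members with sorbate, against 70%, 96.3%, 82.9% and 83.1% in controls 1 to 4. Serpina3n held 2.93%, 3.14%, 2.45% and 3.27% with sorbate, against 24.1%, 2.53%, 12.7% and 12.9% in controls 1 to 4. Control 2 lay within the sorbate range for Serpina3n and just above it for Serpina3k, unlike the other controls. The sum of the 7 members was 19963 to 21968 CPM with sorbate and 25493 to 31219 CPM in controls, with control 2 at 29753 CPM among the other controls. Without Serpina3k the sum was 865 to 1105 CPM with sorbate and 1094 to 7638 CPM in controls.

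**Figure D4:**
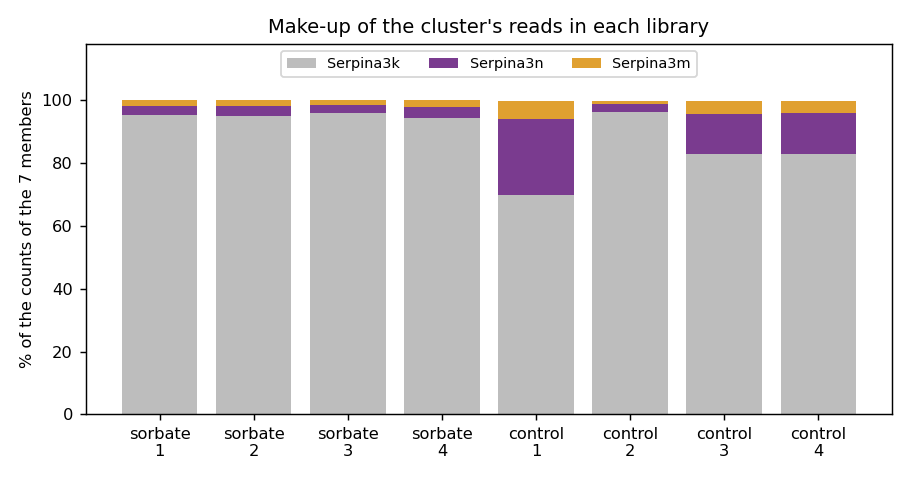
Percentage of the summed counts of the 7 members held by Serpina3k, Serpina3n and Serpina3m in each library, sorbate libraries on the left; the remaining 4 members are too small to be seen. Serpina3n takes 2.45% to 3.27% with sorbate, and 24.1%, 12.7% and 12.9% in controls 1, 3 and 4 but 2.53% in control 2.

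Whether members differed in their change was tested on the log2 ratio of each pair in each library, by an exact two-sided permutation test over the 8 libraries. The smallest p this design allows is 0.0286, and of 15 pairs 0 passed the threshold after Benjamini-Hochberg adjustment and 2 reached 0.0286 before it. One was Serpina3m to Serpina3n, whose log2 ratio was -0.72 ± 0.13 with sorbate and -1.63 ± 0.37 in controls (SD, n = 4 each; exact p = 0.0286, adjusted p = 0.171). The other was Serpina3c to Serpina3k, at -14.59 ± 0.28 with sorbate and -13.00 ± 0.53 in controls (exact p = 0.0286, adjusted p = 0.171). The log2 ratio of Serpina3k to Serpina3n was higher by 1.98 with sorbate, but with control 2 among the controls its exact p was 0.114 (adjusted p = 0.286). Even pairs at the smallest possible p had an adjusted p of 0.171, so this test could hardly pass the threshold. Whether members differed in their response is therefore left undecided by it.

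The genes whose log2 CPM followed Serpina3n most closely over the 8 libraries, of 7160 compared, were Alpk1 (Pearson r = 0.997), a kinase that senses a bacterial sugar, Litaf (0.994), Cxcl1 (0.993), a neutrophil chemoattractant, and Txlna (0.993). In all 4, as in Serpina3n, controls 1, 3 and 4 stood above the other libraries, and these correlations are over 8 points that share that split. Alpk1 was 2.01 to 2.49 CPM with sorbate, against 3.02 CPM in control 2 and 29.0 to 41.7 CPM in the other controls. Serpina3g was followed by Gabbr2 (0.992), Wdr1 (0.980), St3gal3 (0.972) and Zfp335 (0.967). Serpina3k had another set, Uba3 (0.977), Fnbp1l (0.974), Psip1 (0.953) and Cks2 (0.947).

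The other 7 genes of the cluster were nearly silent. Serpina3h was the 1 tested, at 0.362 ± 0.214 CPM with sorbate and 0.720 ± 0.605 CPM in controls (SD, n = 4 each; log2 fold change -0.95, SE 0.63, adjusted p = 0.335). Serpina3j had 3 counts over the sorbate libraries and 25 over the controls, Serpina3b 11 and 6, and Serpina3a 4 and 7. Serpina3d-ps and Serpina3l-ps had 0 counts in all 8 libraries.

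Of 12 tested clade A serpins outside the cluster, most of them its neighbours on the chromosome, 1 rose and 1 fell, with a median log2 fold change of 0.00, against -0.02 over all genes. Serpina10, which encodes the protein Z-dependent inhibitor of clotting factor Xa, fell by 1.85 on the log2 scale (SE 0.31, adjusted p = 0.00582), to 235 ± 13.5 CPM with sorbate, against 844 ± 363 CPM in controls (SD, n = 4 each) and 329 CPM in control 2. Serpina6, which encodes corticosteroid-binding globulin, rose (log2 fold change 0.96, SE 0.19, adjusted p = 0.0105). Of 13 serpins of other clades 0 rose and 1 fell, with a median of -0.17. It was Serpinf2, encoding the plasmin inhibitor alpha-2-antiplasmin (-0.74, SE 0.17, adjusted p = 0.0203). It missed the threshold in 5 of 8 leave-outs (without sorbate 2, 3 or 4 or control 3 or 4; -0.76 to -0.69, adjusted p of 0.0533 to 0.0673).

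Among 16 tested protease inhibitors outside the serpin family 5 fell and 1 rose, with a median of -0.13. Itih4 and Itih3, heavy chains of the inter-alpha-trypsin inhibitors, fell by 1.93 (SE 0.38) and 1.79 (SE 0.31) on the log2 scale. Ambp, which encodes the precursor of bikunin, fell by 1.01 on the log2 scale (SE 0.23, adjusted p = 0.0202). That call was lost without any library but control 2 (-1.05 to -0.88, adjusted p of 0.0512 to 0.0633). Itih1 (-0.48) and Cst3 (-0.54) also fell and Timp3 rose (0.52), these being named after their values were seen. Without any library but control 2, Itih1 (adjusted p of 0.0746 to 0.0898) and Timp3 (0.0521 to 0.128) missed the threshold, and Cst3 missed it in 6 of 8 leave-outs (0.064 to 0.0986), all but those without control 2 or sorbate 2. Timp3 also missed it with the 1 CPM filter and with limma-voom, Itih1 with library size alone or no filter, and Cst3 with library size alone. Of 12 proteases tested 3 fell and 0 rose, with a median of -0.30. Prtn3, a neutrophil granule protease, averaged 0.569 ± 0.598 CPM with sorbate and 36.9 ± 25.0 CPM in controls (SD, n = 4 each; log2 fold change -6.17, SE 0.97, adjusted p = 0.00409). It had 5, 8, 6 and 24 counts with sorbate, against 885, 34, 835 and 1242 counts in controls 1 to 4. Control 2 was at 1.9 CPM, near sorbate 4 at 1.46 CPM. Its control counts carried it past the filter on low counts, so its fall is description only. Ctsc, which activates granule proteases, fell by 1.13 (SE 0.20) and the lysosomal Ctsl by 0.77 (SE 0.15) on the log2 scale.

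Upstream of acute-phase genes, 19 tested genes of IL-6, IL-1 and glucocorticoid signalling held 3 that fell and 1 that rose, with a median of -0.13. Osmr, the oncostatin M receptor, was 2.79 ± 0.562 CPM with sorbate and 17.0 ± 10.9 CPM in controls (SD, n = 4 each; log2 fold change -2.61, SE 0.55, adjusted p = 0.0144). Its call was lost without sorbate 4 (-2.58, adjusted p = 0.0504). Il1r1, a receptor of IL-1, fell by 1.54 on the log2 scale (SE 0.32, adjusted p = 0.0131). Stat3, the transcription factor of IL-6 signals, fell by 0.80 (SE 0.20, adjusted p = 0.0282), a call lost without any library but control 2 (-0.86 to -0.61, adjusted p of 0.0588 to 0.0818). For Osmr, Il1r1 and Stat3 control 2 lay within the sorbate range. It was 2.4 CPM against 2.17 to 3.51 CPM for Osmr and 153 against 81.6 to 161 CPM for Il1r1. For Stat3 it was 125 against 106 to 130 CPM. Cebpa, named after its value was seen, rose by 0.66 (SE 0.18, adjusted p = 0.043), a call also lost without any library but control 2 (0.57 to 0.72, adjusted p of 0.0566 to 0.131).

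Of 22 acute-phase genes outside the serpins 17 fell and 0 rose, with a median log2 fold change of -1.80, against -0.02 over all genes. Their summed level was 28882 to 32451 CPM with sorbate, against 45383 CPM in control 2 and 122083 to 165194 CPM in the other controls. Fgg, the fibrinogen gamma chain, fell by 1.82 (SE 0.26) on the log2 scale. The log2 fold change was -8.12 (SE 0.94) for the serum amyloid Saa2 and -5.82 (SE 0.63) for Saa1. Of 18 interferon-gamma response genes, a class of genes that in macrophages includes Serpina3g, 2 fell and 0 rose, with a median of -0.10. Ifi47 was 20.4 ± 2.98 CPM with sorbate and 42.4 ± 5.91 CPM in controls (SD, n = 4 each; log2 fold change -1.06, SE 0.14, adjusted p = 0.00201), and 44.9 CPM in control 2. Irgm1 fell by 0.36 on the log2 scale (SE 0.10, adjusted p = 0.0332), a call lost in 6 of 8 leave-outs (without any sorbate library, control 1 or control 3; adjusted p of 0.0592 to 0.11). In control 2 both lay within the range of the other controls, while Serpina3g lay below it.

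Markers of other liver cells were read in the same libraries. The summed level of 10 neutrophil markers was 0.487 to 1.47 CPM with sorbate, against 1.06 CPM in control 2 and 12.8 to 24.6 CPM in the other controls, so control 2 lay within the sorbate range as it did for Serpina3i. The 1 tested neutrophil marker, S100a9, fell. With these markers so low in the sorbate libraries and control 2, it could hardly be tested unless high in the other controls. Its fall is therefore description only. Of 10 Kupffer cell and macrophage markers 5 fell and 0 rose, and their sum was 181 to 352 CPM with sorbate, against 252 CPM in control 2 and 465 to 600 CPM in the other controls. The sum of 10 T and NK cell markers was 2.37 to 5.67 CPM with sorbate and 2.76 to 5.47 CPM in controls, with control 2 highest of the controls. B cell markers summed to 4.20 to 13.2 CPM with sorbate and 13.3 to 23.6 CPM in controls, and bile duct markers to 28.4 to 43.5 and 52.7 to 249 CPM. Endothelial markers summed to 141 to 175 CPM with sorbate and 133 to 275 CPM in controls, and stellate cell markers to 155 to 260 and 147 to 238 CPM. Of the tested markers, 0 of 2 fell for T and NK cells, 1 of 2 for B cells, 2 of 5 for bile duct, 1 of 8 for endothelium and 0 of 8 for stellate cells, and 0 of them rose. Across all tested genes 6.3% fell. The median log2 fold change was -0.92 for Kupffer cell and macrophage markers, -0.37 for endothelium, 0.06 for bile duct and 0.07 for stellate cells. In each of these lists 0 markers were at 0 in all libraries. Their part in the levels of the Serpina3 genes was not tested.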

How the data were processed

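The deposited table holds raw counts, whole numbers of reads per gene, of single-read poly(A) RNA libraries from liver. HISAT2 2.1.0, Subread, FastQC and edgeR are named in the submitters' processing notes, as is GRCm38. Counting settings: not given in the sources used here. A further 4 columns of per-sample values fit no label and stayed unused. Replicate numbers follow accession order and pair nothing.

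Genes were filtered with filterByExpr (count minimum 10), which kept 13312 genes, and scaled by TMM. The contrast of sorbate over control used glmQLFTest of edgeR 4.0.16 in R 4.3.3, and p-values were adjusted over all tested genes by Benjamini-Hochberg, with a threshold of 0.05. Standard errors come from the coefficient and its F statistic. Log2 ratios of members used scaled counts plus 0.5. Likeness used log2 CPM with a prior count of 2 and genes of at least 10 CPM on average. Positions and exon lengths come from GENCODE vM21 and promoters from RefSeq. Counting intervals cover counting error only.

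The members and all gene lists were chosen with earlier results of these data known. From each other list the text names up to 3 genes of lowest p past the threshold, or 2 if none passed. Alternatives were other scalings and filters, DESeq2 1.42.0, limma-voom (limma 3.58.1) with and without sample weights, and leaving out each library.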

Additional observations from a re-analysis of the deposited data

Results flagged for a closer look

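In 50 groups of 4 libraries, over the members and the other genes named by rule, the highest or lowest library was compared with the spread of its group. Chance puts about 1 in 20 groups past this limit, and 2 passed it, neither in a Serpina3 gene. Prtn3 was 1.46 CPM in sorbate 4, against 0.187 to 0.356 CPM in the other sorbate libraries. Saa1 was 111 CPM in sorbate 3, against 214 to 223 CPM in the other sorbate libraries. Control 2 passed it for 0 of the members.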

How the results depend on the processing

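Serpina3c and Serpina3n fell under every alternative run. Serpina3m was -1.30 (adjusted p = 0.0509) with limma-voom and -1.79 to -1.32 with 1 library left out. Serpina3f passed with no filter (-1.30), DESeq2 (-1.31) and sample weights (-1.54), and was -1.57 to -1.07 with 1 library left out. Serpina3g passed with DESeq2 (-0.89) and sample weights (-0.96), and was -1.08 to -0.55 with 1 left out. The log2 ratio of Serpina3f to Serpina3m, 0.15 higher with sorbate, was -0.07 without sorbate 2 and -0.01 without control 4, and -0.07 to 0.38 over all leave-outs. Of the 6 members tested with all libraries, 4 fell with no filter, 5 with DESeq2 or sample weights and 2 with limma-voom. With 1 library left out 2 to 5 of them fell, with 5 only without control 2. Over all genes 963 fell with no filter, 1244 with DESeq2, 1944 with sample weights and 711 with limma-voom, against 838 in the main fit. The member counts leave out Serpina3i, which in some leave-outs passed the filter only through its control counts.

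Over all genes, 1300 rose and 550 fell with library size alone, and 1968 and 1944 with sample weights. With 1 library left out, 332 to 2053 rose and 357 to 1915 fell, both highest without control 2. For clade A serpins, 3 fell with no filter or sample weights and 2 with DESeq2 (1 to 3 with 1 left out). For other serpins, 1 rose with library size alone or DESeq2 and 2 with sample weights, while 2 fell with the 1 CPM filter, DESeq2 or limma-voom and 5 with sample weights (0 to 1 rose and 0 to 5 fell with 1 left out). For non-serpin inhibitors, 0 rose with the 1 CPM filter or limma-voom and 2 with DESeq2 or sample weights, and 3 fell with library size alone (0 to 2 and 2 to 9). For proteases, 1 rose and 5 fell with sample weights (0 to 1 and 3 to 5). For IL-6 and glucocorticoid signalling, 4 rose and 6 fell with sample weights (0 to 4 and 2 to 6). For interferon-gamma genes, 1 fell with library size alone and 4 with DESeq2 or sample weights (0 to 1 rose and 1 to 4 fell). Prtn3 and Osmr lost their calls with limma-voom (-5.78 and -2.22), and Irgm1 with library size alone (-0.24) or no filter (adjusted p = 0.0816). The cause of these shifts was not tested.

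No paired analysis was possible because the labels carry no replicate number shared between the groups. Serpina3c and Serpina3i rest on 18 counts or fewer per sorbate library, which limits their precision.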
